A study of Mus musculus with 12 samples.

Results

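The genes described here are 43 genes of the lysosome, the acidic compartment in which cells break down proteins, sugars, lipids and engulfed particles. They comprise 9 cysteine proteases, 4 aspartic and serine proteases, 11 glycosidases, 3 sulfatases, 9 lipid hydrolases, activators and sterol-transfer proteins, and 7 other membrane proteins. The rule is a list of gene symbols, drawn up with earlier results of these data known, and uses no measured value; each gene is read at 1 probe set, the one with the highest mean over all arrays. All 43 listed genes were measured, among 19938 genes in the whole series. Arsb alone had a second probe set, whose group means were highest and lowest in the same groups.

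The cells came from the skin of untreated wild-type C57BL/6 mice kept specific-pathogen-free and were profiled on 12 Affymetrix arrays, 3 for each of 4 sorted groups. The groups were MHC-II-positive melanophages, MHC-II-negative melanophages, MHC-II-positive macrophages and MHC-II-negative macrophages. Melanophages are macrophages that hold melanin, and MHC class II molecules present peptides to helper T cells. Every group was sorted for surface CD11b and CD64 and against CD24, CCR2 and Ly6C. Melanophages were taken with a high side scatter, a measure of granularity, whereas the macrophage labels give it as high in the titles and low in the phenotype field. The labels give no age, sex or pooling of the mice. Nor do they say that the 3 arrays of a group stem from different animals, and the p-values below therefore cover the spread among these samples alone, which may be technical.

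The sort could be checked on the arrays. H2-Ab1, the beta chain of a class II molecule, exceeded its MHC-II-negative level by 2.81 on the log2 scale in MHC-II-positive cells (adjusted p = 0.000114). Of 14 measured macrophage markers, 13 had means above 5 in every group. Limma called none of the 14 in the averaged comparisons of cell kinds and of MHC-II classes (0.12% and 0.762% of all genes). At an unadjusted p under 0.05 there were 3 and 5 of them, against 7.52% and 9.23% of all genes. Itgam, the gene of CD11b, differed by -1.02 between melanophages and macrophages (adjusted p = 0.0772), and Cd14 by 0.50 between MHC-II classes (adjusted p = 0.0618). All 11 keratinocyte and all 10 melanocyte markers had means under 4 in every group, near the array medians of 2.97 to 3.08. Of other cell types, 9 of 10 fibroblast, 7 of 9 mast cell and lymphocyte and 7 of 10 monocyte and neutrophil markers had means under 4 in every group. The fibroblast gene Dcn had group means of 5.26 to 6.31, and the mast cell genes Mcpt4 and Cpa3 of 5.61 to 6.78 and of 3.67 to 5.54. Cpa3 differed by -1.17 between MHC-II classes (adjusted p = 0.531) and S100a8, a gene of neutrophils and monocytes, by 1.19 between melanophages and macrophages (adjusted p = 0.321). S100a9, of the same list, went the other way there, by -0.73 (adjusted p = 0.28). The median difference of the 10 monocyte and neutrophil markers there was -0.0201. Limma called no gene of these 3 lists in either averaged comparison. At an unadjusted p under 0.05 there were 3 of 10 monocyte and neutrophil, 1 of 10 fibroblast and 1 of 9 mast cell and lymphocyte markers between cell kinds. Between MHC-II classes there were 3, 0 and 1. Of all genes, 7.52% and 9.23% had such a p in these comparisons. The part of such other cells in the results below was not tested. MHC-II-negative macrophages replicate 1 stood apart from its group mates. Over all genes it deviated from them with an SD of 0.406 log2 units, whereas the other arrays lay between 0.241 and 0.356, the highest of these being MHC-II-positive macrophages replicate 3.

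Lysosomal hydrolases are made in the endoplasmic reticulum, tagged in the Golgi, mostly with mannose-6-phosphate, and activated at the low pH of the lysosome. Macrophages hold many of them, since they digest what they take up, and in antigen-presenting cells several cathepsins also trim the invariant chain and the peptides that MHC class II molecules display. Many lysosomal genes carry near their start a palindromic E-box, the core of the CLEAR element, which is bound by the transcription factors TFEB, TFE3 and MITF.

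RefSeq promoters of assembly GRCm38.p6, each running from 250 bases before to 50 bases after a gene's start, were at hand for 38 of the 43 genes. The table has no entry for Asah1, Ctsb, Ctse, Ctsh and Npc1. The letters CACGTG, which read the same on both strands, were found in 13 of the 38 (34.2%), and in 8.09% of all 27025 genes of the table. Counted per promoter, 7.15% of all 32851 promoters held them. The longer run CACGTGAC, which contains CACGTG and was also searched as GTCACGTG on the other strand, was found in 10 of the 38 (26.3%), in 2.55% of all genes and in 2.25% of all promoters. Ctsf, Ctsl and Gaa held only the shorter run. The sites of the longer run are shown because they hold the lysosomal E-box in the form that was searched. The capitals mark the 8 letters, and the core lies at positions -245 to 5 from the start. A match describes letters and does not show that a factor binds there.
Arsa (chr15:89477423-89477452, minus strand): tcaactcagtGTCACGTGttgtctgctcct
Ctsa (chr2:164833749-164833778, plus strand): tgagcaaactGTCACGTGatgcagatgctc
Ctsa (chr2:164833766-164833795, plus strand): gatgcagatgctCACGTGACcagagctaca
Ctsd (chr7:142387908-142387937, minus strand): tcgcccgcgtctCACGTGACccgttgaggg
Ctsd (chr7:142388048-142388077, minus strand): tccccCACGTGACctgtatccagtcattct
Gla (chrX:134601182-134601211, minus strand): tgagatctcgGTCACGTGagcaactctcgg
Glb1 (chr9:114401018-114401047, plus strand): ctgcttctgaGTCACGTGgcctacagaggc
Lamp1 (chr8:13159121-13159150, plus strand): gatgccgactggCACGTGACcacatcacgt
Lgmn (chr12:102439124-102439153, minus strand): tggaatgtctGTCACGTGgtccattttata
Mcoln1 (chr8:3500436-3500465, plus strand): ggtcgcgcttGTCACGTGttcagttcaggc
Mcoln1 (chr8:3500462-3500491, plus strand): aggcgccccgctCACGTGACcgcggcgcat
Naglu (chr11:101070009-101070038, plus strand): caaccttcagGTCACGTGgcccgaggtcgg
Sgsh (chr11:119355522-119355551, minus strand): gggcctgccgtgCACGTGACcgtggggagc

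The whole 300-base promoter of Mcoln1, at chr8:3500269-3500568 on the plus strand, is shown as an example. It holds the 8 letters on both strands within a short stretch, with cores at -71 and -45. The Ctsa promoter does so too, with cores at -12 and 5. Mcoln1 encodes mucolipin 1, the calcium channel of the lysosomal membrane.
Mcoln1 promoter: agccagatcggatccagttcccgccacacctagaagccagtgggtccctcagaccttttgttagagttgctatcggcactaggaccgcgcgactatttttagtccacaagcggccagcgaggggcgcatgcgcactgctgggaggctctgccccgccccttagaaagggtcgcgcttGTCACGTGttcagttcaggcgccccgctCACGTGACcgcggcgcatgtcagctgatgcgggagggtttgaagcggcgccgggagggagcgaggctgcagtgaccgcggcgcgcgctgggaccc

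The lysosomal genes were for the most part at like levels in all 4 groups. In 29 of the 43 genes the 4 group means lay within 0.5 of each other on the log2 scale, and only Ctsh and Gm2a had means that spanned over 1. These counts were not taken over all genes. The median absolute difference of the 43 was 0.122 between melanophages and macrophages and 0.107 between MHC-II classes. Over all genes, many of them at lower levels, it was 0.0674 and 0.073. On every array 35 genes lay above a log2 value of 4, a count not taken over all genes. Above 5 on every array were 30 of the 43 (69.8%), against 14.8% of all genes. Above 9 on every array were 11 (25.6%), against 1.73% of all genes. Ctse, Naglu and Arsa had every group mean under 4, near the array medians. The highest of the 4 group means lay in MHC-II-positive melanophages for 6 genes, in MHC-II-negative melanophages for 18, in MHC-II-positive macrophages for 14 and in MHC-II-negative macrophages for 5. In bulk samples such as these, fewer cells of a type and less RNA per cell cannot be told apart.

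**Figure D1:**
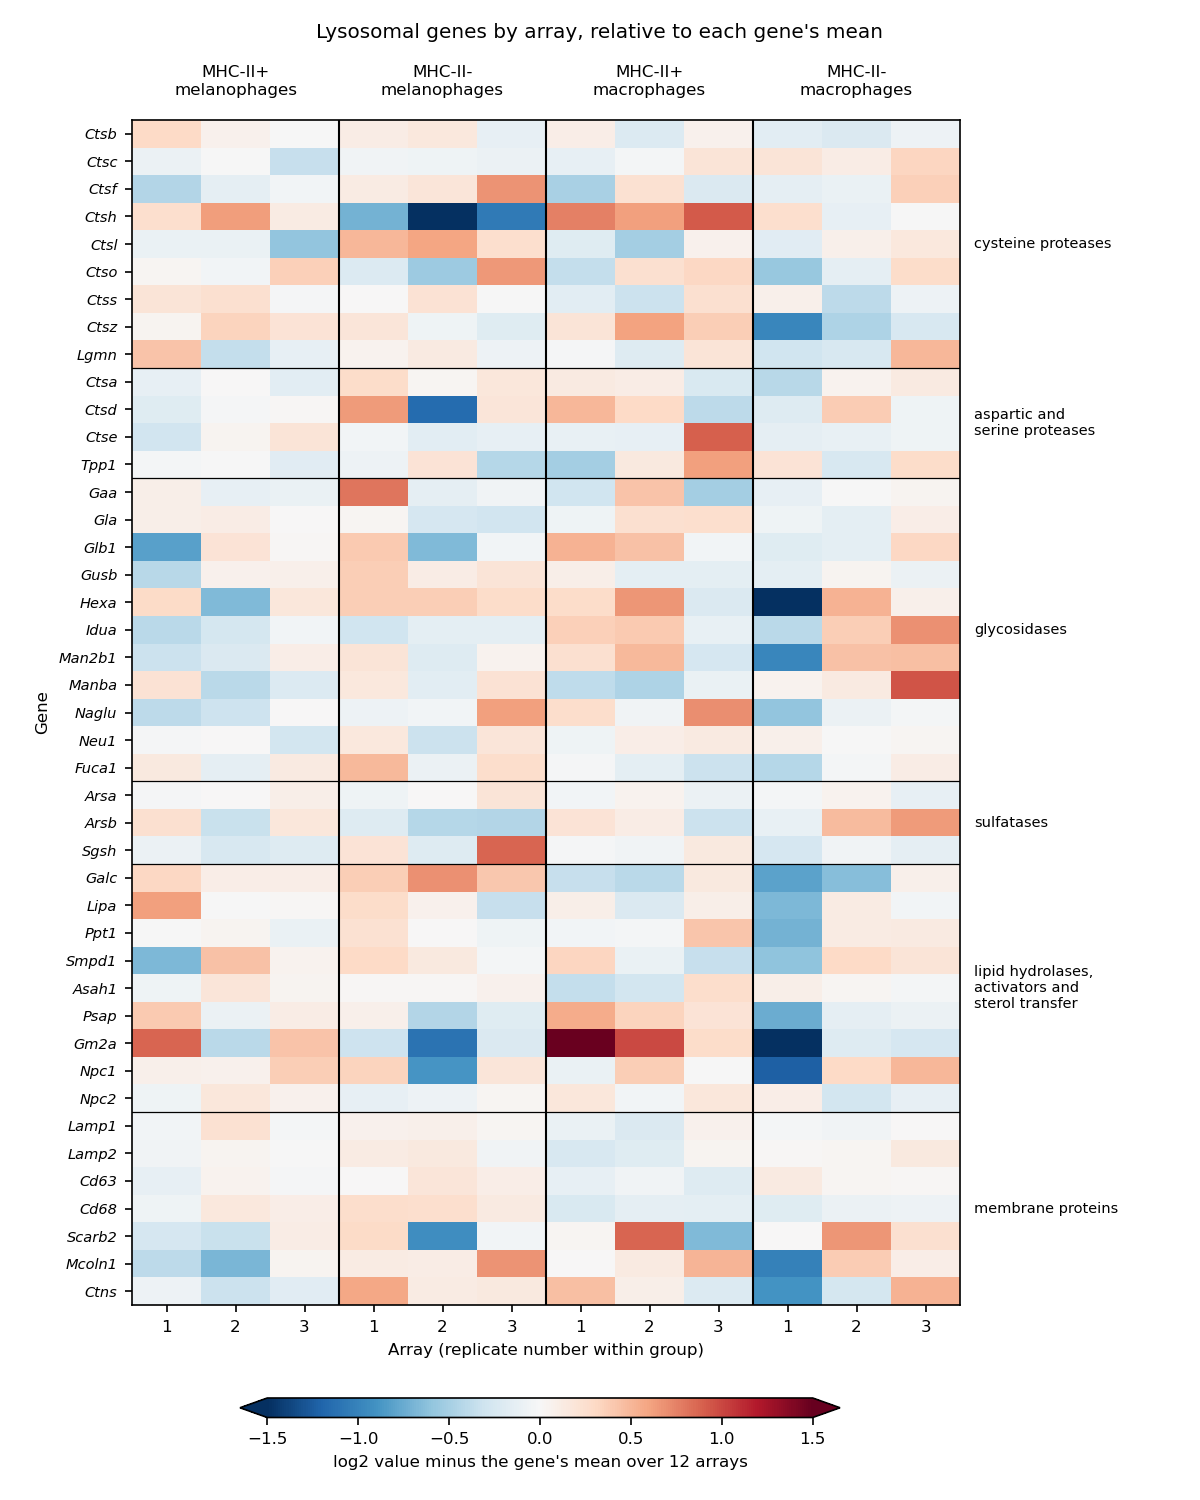
Each row is 1 of the 43 genes, grouped by role, and each column 1 array; colour gives the log2 value minus the mean of that gene over 12 arrays, with the scale ending at 1.5 either way. Ctsh is blue in the 3 MHC-II-negative melanophage arrays, and MHC-II-negative macrophages replicate 1 holds the lowest value of 12 in 16 genes.

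MHC-II-negative macrophages replicate 1 was low across many of these genes. It was the lowest of all 12 arrays in 16 of the 43 and the lowest of its group in 31. Its median deviation from the means of the genes was -0.179, whereas the other 11 arrays lay between -0.0371 and 0.124. It lay more than 1 log2 unit under both of its group mates for Hexa, Man2b1, Gm2a, Npc1 and Mcoln1. Hexa, the alpha subunit of beta-hexosaminidase, gave 6.36 on this array, against 8.997 and 8.55 on the other MHC-II-negative macrophage arrays.

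MHC-II-positive cells were set against MHC-II-negative cells to ask how the lysosomal genes differ with class II expression. One gene of the 43, Ctsh, passed the test, higher in MHC-II-positive cells (limma with Benjamini-Hochberg adjustment over all genes, averaged over melanophages and macrophages). Over all genes 0.762% were called in this comparison. All 43 genes lay above the median gene by mean level. Of the 9969 genes at or above the median gene, fitted alone, 193 were called here. The shares of all genes here and elsewhere include genes at lower levels. No unadjusted share was taken for the brighter genes alone. At an unadjusted p under 0.05 there were 9 of 43 genes (20.9%), 5 of them higher and 4 lower with MHC-II, against 9.23% of all genes. These 9 were Ctsf, Ctsh, Ctsl, Ctsz, Gla, Manba, Psap, Gm2a and Cd63, and 8 of them failed the adjustment. The median difference of the 43 genes was -0.0221, beside -0.0237 over all genes, and 23 lay below 0. With replicate 1 of the MHC-II-negative macrophages left out, the median became -0.092, and 29 genes lay below 0.

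Ctsh encodes cathepsin H, a cysteine protease that removes amino acids from the amino end of its substrates. Its log2 values were 7.20, 7.57 and 7.08 on MHC-II-positive melanophage arrays, against 6.25, 5.31 and 5.88 in MHC-II-negative melanophages. In MHC-II-positive macrophages they were 7.71, 7.56 and 7.87, against 7.20, 6.82 and 6.94 in MHC-II-negative macrophages. Within each cell kind every MHC-II-positive array lay above every MHC-II-negative one. The averaged difference was 1.10 ± 0.15 (SE), or 2.14-fold, with an adjusted p of 0.00788 by limma. Here and below, overlap within a pair of groups describes 3 arrays against 3. The share of all genes without such overlap was not counted, and the genes were named for their differences or calls. A lack of overlap is therefore a description and not a further test.

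Within melanophages Ctsh rose by 1.47 ± 0.22 in MHC-II-positive over MHC-II-negative cells, or 2.78-fold (adjusted p = 0.0231 by limma), where 1 of 43 genes and 0.211% of all genes were called. Within macrophages the difference was 0.72 ± 0.22 and did not pass (adjusted p = 0.337). The difference between these differences was 0.75 ± 0.31, with an unadjusted p of 0.0348 that did not survive adjustment. The averaged call held in each of 24 alternatives, with adjusted p between 0.00315 and 0.0298. The call within melanophages was lost when replicate 1 of the MHC-II-positive melanophages was left out (adjusted p = 0.074), likewise their replicate 2 (0.122) or 3 (0.059), and without replicate 3 of the MHC-II-negative melanophages (0.104). It was also lost with only the arrays of the groups compared in the fit (0.175) and with a block on the runs of codes in the sample titles (0.0542).

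Some markers of dendritic cells, which also express class II, moved with the same comparison. Of 12 such markers, all measured, Ccr7, Cd207 and Itgax were called higher in MHC-II-positive cells averaged over cell kind, where 0.762% of all genes were called, and the other 9 were not. Cd207 and Itgax were called within macrophages, against 0.341% of all genes. Within melanophages limma called none of the 12, and 3 had an unadjusted p under 0.05, against 5.7% of all genes. All 3 were higher in MHC-II-positive melanophages. Ccr7 differed by 1.82 (adjusted p = 0.158 by limma), Itgax by 0.62 (0.334) and Dpp4 by 0.60 (0.496). The median difference of the 12 within melanophages was 0.207. The summed linear level of the 12 ranged from 269 to 523.5 on MHC-II-positive melanophage arrays, against 239.6 to 350.8 in MHC-II-negative melanophages. In MHC-II-positive macrophages it ranged from 441.8 to 678.4, against 245 to 350.8 in MHC-II-negative macrophages. Cd209a, with the highest group means of the 12 (7.32 to 8.05), weighs most in this sum. Cd209a was not called between MHC-II classes (0.45, adjusted p = 0.655 by limma), so the sum mostly does not reflect the 3 called genes. Zbtb46, Flt3, Xcr1, Clec9a, Itgae, Epcam and Dpp4 had means under 4 in every group. The part of such cells in the Ctsh result was not tested.

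The other genes at the high end of this comparison were Gm2a, Ctsz and Psap, and none of the 3 passed. Gm2a encodes the activator protein that lifts ganglioside GM2 out of the membrane for beta-hexosaminidase A. It gave 8.87, 7.59 and 8.42 on MHC-II-positive melanophage arrays, against 7.68, 6.89 and 7.78 in MHC-II-negative melanophages. Its values were 9.48, 8.98 and 8.27 in MHC-II-positive macrophages, against 6.42, 7.80 and 7.74 in MHC-II-negative macrophages. The melanophage groups overlapped, and the macrophage groups did not. The averaged difference was 1.22 ± 0.33 with a 95% interval of 0.50 to 1.94 and an adjusted p of 0.181. Without MHC-II-negative macrophages replicate 1 the Gm2a difference was 0.99 (adjusted p = 0.254).

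Ctsz encodes cathepsin Z, a carboxypeptidase of the cysteine protease family. Its values were 7.83, 8.12 and 7.99 on MHC-II-positive melanophage arrays, against 7.96, 7.72 and 7.60 in MHC-II-negative melanophages, and these overlapped. In MHC-II-positive macrophages they were 7.98, 8.39 and 8.16, against 6.80, 7.32 and 7.54 in MHC-II-negative macrophages, with no overlap. The averaged difference was 0.59 ± 0.13 (adjusted p = 0.0904), and within macrophages it was 0.96 ± 0.18, 1.94-fold (adjusted p = 0.0707). Without MHC-II-negative macrophages replicate 1 the Ctsz difference within macrophages was 0.75 (adjusted p = 0.111).

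Psap encodes prosaposin, the precursor of the 4 saposins that help hydrolases reach sphingolipids. It gave 10.47, 10.002 and 10.19 on MHC-II-positive melanophage arrays, against 10.16, 9.64 and 9.90 in MHC-II-negative melanophages. Among macrophages, Psap gave 10.64, 10.42 and 10.29 in MHC-II-positive arrays, against 9.34, 9.95 and 9.99 in MHC-II-negative macrophages. Only the macrophage groups were free of overlap, and the averaged difference was 0.50 ± 0.14 (adjusted p = 0.21).

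**Figure D2:**
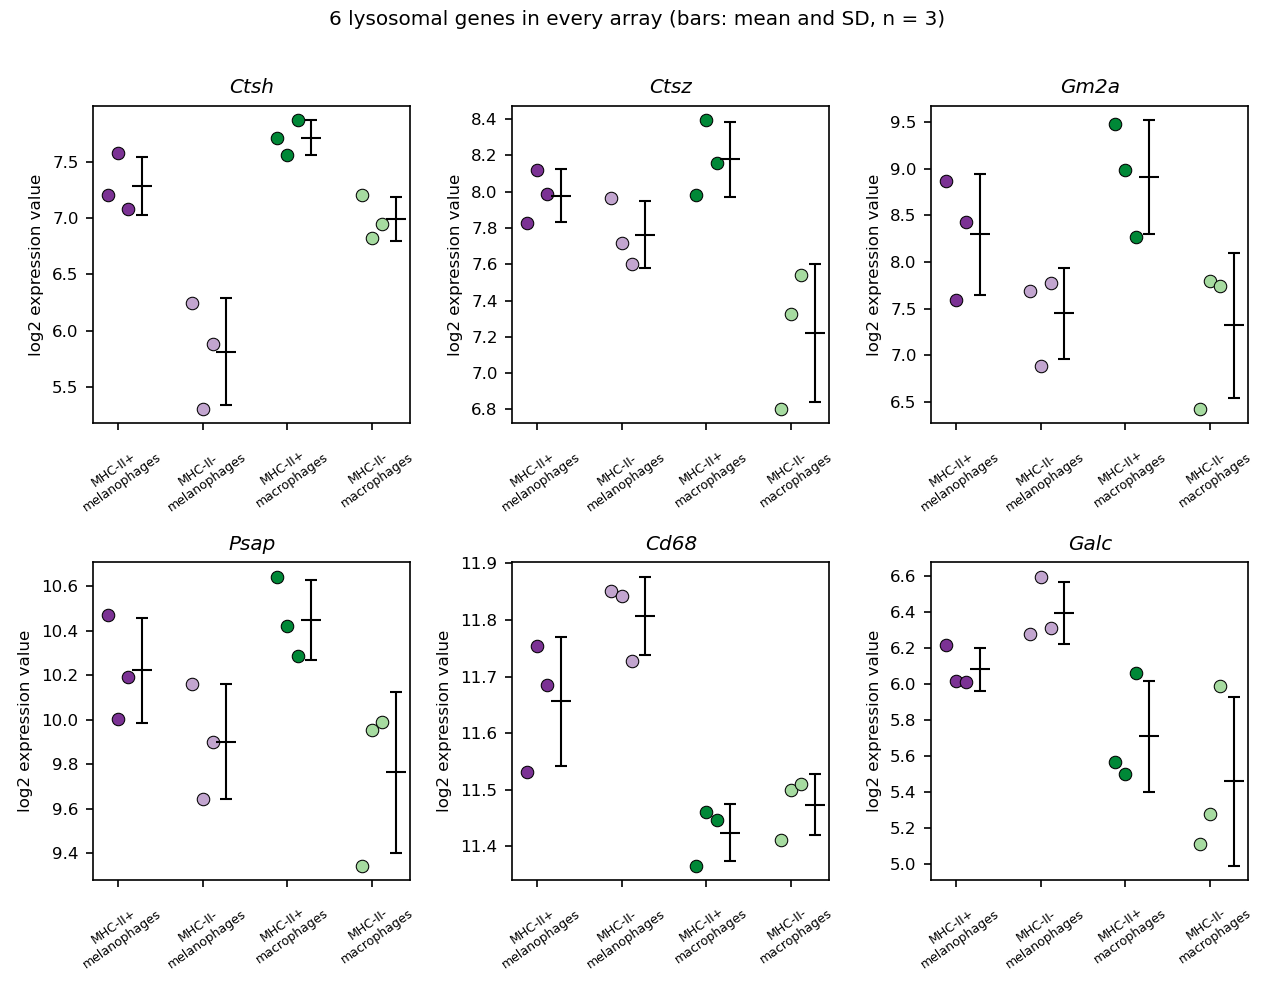
Each panel shows the log2 values of 1 gene in the 12 arrays, with the mean and SD of 3 arrays beside each group; the vertical axes differ and do not start at 0. Ctsh averages 7.28 in MHC-II-positive and 5.81 in MHC-II-negative melanophages, and every Cd68 point of the melanophages lies above every Cd68 point of the macrophages.

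At the low end of this comparison were Ctsl, Manba, Ctsf and Gaa, none of which passed. Ctsl encodes cathepsin L, an endopeptidase. It gave 9.41, 9.39 and 8.90 on MHC-II-positive melanophage arrays, against 10.004, 10.10 and 9.75 in MHC-II-negative melanophages, without overlap. In MHC-II-positive macrophages it gave 9.32, 8.99 and 9.57, against 9.33, 9.58 and 9.65 in MHC-II-negative macrophages, with overlap. The averaged difference was -0.47 ± 0.13 (adjusted p = 0.181), and within melanophages it was -0.72 ± 0.18 (adjusted p = 0.3).

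Manba encodes beta-mannosidase, which cleaves the last mannose of N-glycan remnants. Its values were 5.47, 4.85 and 5.05 on MHC-II-positive melanophage arrays, against 5.41, 5.10 and 5.47 in MHC-II-negative melanophages. In MHC-II-positive macrophages they were 4.87, 4.79 and 5.15, against 5.31, 5.39 and 6.19 in MHC-II-negative macrophages. Here only the macrophages were without overlap, and the averaged difference was -0.45 ± 0.17 (adjusted p = 0.41).

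Ctsf encodes cathepsin F, another cysteine protease. It gave 5.17, 5.48 and 5.57 on MHC-II-positive melanophage arrays, against 5.73, 5.79 and 6.28 in MHC-II-negative melanophages. In MHC-II-positive macrophages it gave 5.13, 5.84 and 5.40, against 5.48, 5.51 and 5.97 in MHC-II-negative macrophages. The melanophage groups did not overlap and the macrophage groups did, with an averaged difference of -0.36 ± 0.15 (adjusted p = 0.488).

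Gaa encodes the acid alpha-glucosidase that degrades glycogen. It gave 4.0, 3.80 and 3.82 on MHC-II-positive melanophage arrays, against 4.72, 3.78 and 3.86 in MHC-II-negative melanophages. The macrophage values were 3.62, 4.34 and 3.40 in MHC-II-positive cells, against 3.79, 3.90 and 3.95 in MHC-II-negative macrophages. Both pairs overlapped, and the averaged difference was -0.17 ± 0.19 (adjusted p = 0.832).

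By role, the MHC-II comparison called 1 of 9 cysteine proteases and no member of the other 5 roles, where 0.762% of all genes were called. The 7 membrane proteins all lay below 0, between -0.156 for Cd63, a tetraspanin of late endosomes, and -0.031 for Lamp1, a heavily glycosylated protein of the lysosomal membrane. None of the 7 passed, and 1 of them, Cd63, had an unadjusted p under 0.05, against 9.23% of all genes. Cathepsin S, encoded by Ctss, removes the invariant chain from class II molecules in many antigen-presenting cells. It averaged 11.52 in MHC-II-positive and 11.45 in MHC-II-negative melanophages, and 11.30 in MHC-II-positive and 11.25 in MHC-II-negative macrophages. Its averaged difference of 0.06 had a 95% interval of -0.19 to 0.31. The interval of the difference lay within 1 log2 unit, or 2-fold, either way for 40 of the 43 genes, the exceptions being Ctsh, Hexa and Gm2a, and for 96.5% of all genes.

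Within macrophages no gene of the 43 was called by limma, against 0.341% of all genes. At an unadjusted p under 0.05 there were 7 (16.3%), 5 higher and 2 lower, against 7.83% of all genes. Within melanophages there were 4 at that p (9.3%), 1 higher and 3 lower, against 5.7% of all genes. The median difference of the 43 was -0.0723 within melanophages and 0.0826 within macrophages. The macrophage median became -0.0423 without MHC-II-negative macrophages replicate 1, and 27 rather than 16 genes then lay below 0.

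Melanophages were set against macrophages to ask whether melanin-laden cells differ in their lysosomal genes. No gene of the 43 was called by limma when averaged over MHC-II class, and 0.12% of all genes were. Of the 9969 genes at or above the median gene, fitted alone, 38 were called. At an unadjusted p under 0.05 there were 5 of 43 (11.6%), against 7.52% of all genes. Galc and Cd68 were higher and Ctsc, Ctsh and Idua lower in melanophages. The median difference of the 43 was 0.0653, beside 0.0105 over all genes, and 25 genes lay above 0. Without MHC-II-negative macrophages replicate 1 that median was -0.0636, 18 genes lay above 0 and 8 rather than 5 had an unadjusted p under 0.05. The 95% interval lay within 2-fold either way for 41 of the 43 genes, the exceptions being Ctsh and Hexa, and for 97.0% of all genes.

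**Figure D3:**
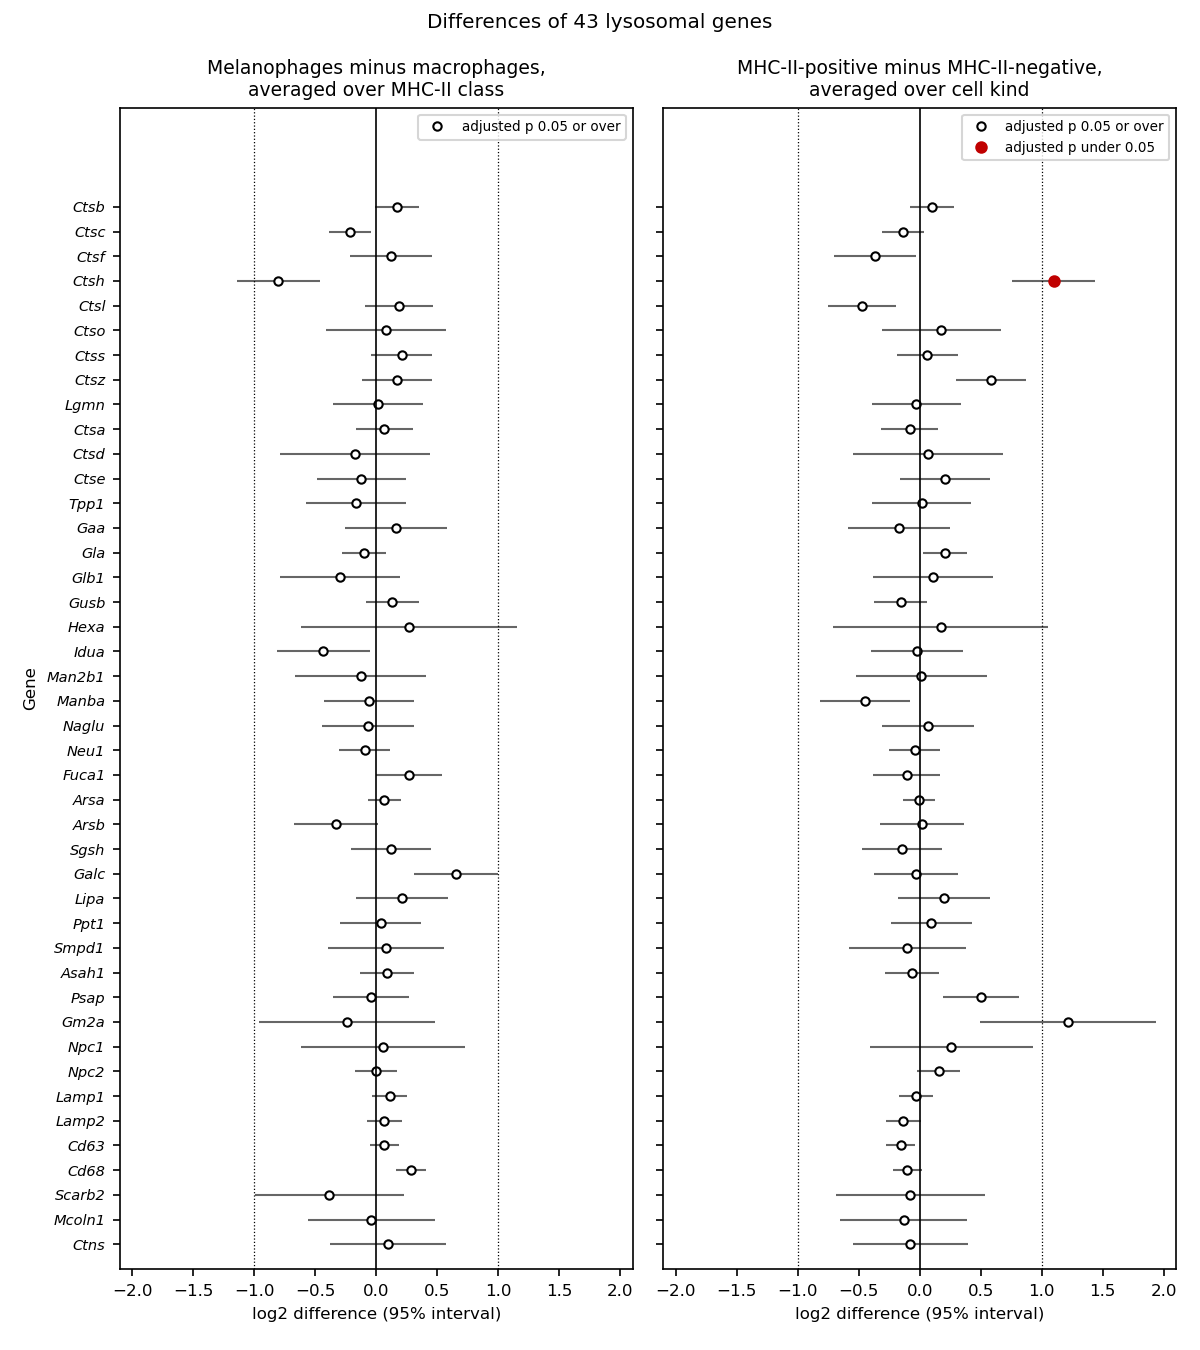
Points are log2 differences of the 43 genes with 95% intervals from limma, melanophages minus macrophages on the left and MHC-II-positive minus MHC-II-negative cells on the right; dotted lines mark 2-fold. Only Ctsh on the right is filled, at 1.10, and no gene on the left is.

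Cd68, a heavily glycosylated membrane protein of macrophage late endosomes and lysosomes, had the smallest adjusted p of the 43. It gave 11.53, 11.75 and 11.68 on MHC-II-positive melanophage arrays, against 11.37, 11.46 and 11.45 in MHC-II-positive macrophages. Among MHC-II-negative cells, Cd68 gave 11.85, 11.84 and 11.73 in melanophages, against 11.41, 11.50 and 11.51 in MHC-II-negative macrophages. All 6 melanophage arrays lay above all 6 macrophage arrays, a separation found for 1 of the 43 genes (2.33%) and for 0.416% of all genes. The difference was small, 0.28 ± 0.05 or 1.22-fold, and its adjusted p was 0.119. With a variance prior that follows intensity the adjusted p was 0.0373. In the MHC-II comparison none of the 43 genes separated all 6 MHC-II-positive from all 6 MHC-II-negative arrays, as 1.11% of all genes did.

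Galc encodes galactosylceramidase, which removes galactose from myelin-type glycolipids. It gave 6.22, 6.01 and 6.01 on MHC-II-positive melanophage arrays, against 5.56, 5.50 and 6.06 in MHC-II-positive macrophages. In MHC-II-negative melanophages it gave 6.28, 6.59 and 6.31, against 5.11, 5.28 and 5.99 in MHC-II-negative macrophages. The MHC-II-negative groups did not overlap, and the MHC-II-positive ones did. At 0.65 ± 0.16, or 1.57-fold, its averaged difference was the highest of the 43 (95% interval 0.31 to 0.998, adjusted p = 0.236).

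Fuca1, which encodes the alpha-fucosidase of lysosomes, and Hexa were the other genes at the high end. Fuca1 gave 7.32, 7.03 and 7.30 on MHC-II-positive melanophage arrays, against 7.15, 7.03 and 6.85 in MHC-II-positive macrophages. Among MHC-II-negative cells, Fuca1 gave 7.66, 7.07 and 7.43 in melanophages, against 6.74, 7.14 and 7.28 in MHC-II-negative macrophages. Both pairs overlapped and the averaged difference was 0.27 ± 0.12 (adjusted p = 0.67).

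Hexa gave 8.76, 7.82 and 8.64 on MHC-II-positive melanophage arrays, against 8.75, 9.14 and 8.26 in MHC-II-positive macrophages. In MHC-II-negative melanophages it gave 8.84, 8.85 and 8.75, against 6.36, 8.997 and 8.55 in MHC-II-negative macrophages. Its averaged difference of 0.27 ± 0.40 rested on the single low array and was -0.13 without it.

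At the low end stood Ctsh, Idua, Scarb2 and Arsb. Ctsh differed by -0.80 ± 0.15 averaged over MHC-II class (adjusted p = 0.122). In MHC-II-negative cells its difference was -1.18 ± 0.22, or 2.26-fold lower in melanophages, and the values given above for the 3 melanophage arrays all lay below the 3 macrophage arrays (adjusted p = 0.181). In MHC-II-positive cells the difference was -0.43 ± 0.22, and the values overlapped narrowly (adjusted p = 0.833). Of the 12 dendritic cell markers 2 were called lower in melanophages averaged over MHC-II class, where 0.12% of all genes were called. These were Cd207, by -1.16 (adjusted p = 0.0262), and Itgax, by -0.80 (adjusted p = 0.0404), and both calls were lost in some alternatives (9 of 23 and 10 of 24). In MHC-II-positive cells they differed by -1.999 and -1.44, both called where 0.015% of all genes were, and lost in 11 of 24 and 9 of 25 alternatives. Their part in the Ctsh difference was not tested.

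Idua encodes alpha-iduronidase, which degrades heparan and dermatan sulfate. It gave 4.42, 4.57 and 4.78 on MHC-II-positive melanophage arrays, against 5.19, 5.22 and 4.72 in MHC-II-positive macrophages. The MHC-II-negative values were 4.52, 4.68 and 4.69 in melanophages, against 4.42, 5.20 and 5.52 in MHC-II-negative macrophages. In each class 1 macrophage array fell among or below the melanophage arrays, and these were the 2 macrophage arrays that deviated most from their mates over all genes. The averaged difference was -0.43 ± 0.17 (adjusted p = 0.595), and without those 2 arrays it was -0.67 and passed (adjusted p = 0.0332).

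Scarb2 encodes LIMP-2, the membrane protein that carries beta-glucocerebrosidase to lysosomes. It gave 7.35, 7.26 and 7.71 on MHC-II-positive melanophage arrays, against 7.62, 8.47 and 6.93 in MHC-II-positive macrophages. In MHC-II-negative melanophages it gave 7.88, 6.66 and 7.56, against 7.60, 8.26 and 7.83 in MHC-II-negative macrophages. Both pairs overlapped, and the averaged difference was -0.38 ± 0.27 (adjusted p = 0.811).

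Arsb encodes arylsulfatase B, which removes sulfate from dermatan and chondroitin sulfate. It gave 7.29, 6.71 and 7.22 on MHC-II-positive melanophage arrays, against 7.25, 7.16 and 6.72 in MHC-II-positive macrophages. In MHC-II-negative melanophages it gave 6.86, 6.62 and 6.61, against 6.93, 7.52 and 7.68 in MHC-II-negative macrophages. The MHC-II-negative groups did not overlap, and the MHC-II-positive ones did. The averaged difference was -0.33 ± 0.15 (adjusted p = 0.685), and in MHC-II-negative cells it was -0.68 ± 0.22 (adjusted p = 0.671).

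By role, the cell-kind comparison called none of the 9 cysteine proteases, 4 aspartic and serine proteases, 11 glycosidases, 3 sulfatases, 9 lipid genes or 7 membrane proteins. The medians of the roles lay between -0.144 for the aspartic and serine proteases and 0.117 for the cysteine proteases. Ctsd, which encodes the aspartic protease cathepsin D, averaged 9.35 in MHC-II-positive and 9.31 in MHC-II-negative melanophages, and 9.55 in MHC-II-positive and 9.46 in MHC-II-negative macrophages. Its difference of -0.18 had a 95% interval of -0.79 to 0.44, and 1 MHC-II-negative melanophage array, at 8.27, lay far under its mates at 10.06 and 9.60. Lamp1 and Lamp2, the most used membrane markers of lysosomes, had intervals of -0.03 to 0.25 and -0.08 to 0.21. Npc1 and Npc2, which pass cholesterol out of the lysosome, had intervals of -0.62 to 0.72 and -0.17 to 0.17.

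Within each MHC-II class no gene of the 43 was called between melanophages and macrophages by limma. In MHC-II-negative cells 0.00502% of all genes were called, and 7 of the 43 (16.3%), 4 higher and 3 lower in melanophages, had an unadjusted p under 0.05, against 5.65% of all genes. In MHC-II-positive cells 0.015% of all genes were called, and 2 of the 43 (4.65%), Cd68 and Naglu, had such a p, against 6.3% of all genes. Without MHC-II-negative macrophages replicate 1 that 2 became 4, though this array is in neither MHC-II-positive group and enters there only through the pooled variance. The 7 in MHC-II-negative cells became 5 without it. The median difference was 0.11 in MHC-II-negative cells, with 31 genes above 0, and -0.0582 in MHC-II-positive cells, with 16 genes above 0. Without MHC-II-negative macrophages replicate 1 the median in MHC-II-negative cells was -0.0109, with 21 genes above 0.

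The interaction, which asks whether the MHC-II difference is the same in melanophages as in macrophages, called none of the 43 genes and 0% of all genes by limma. At an unadjusted p under 0.05 there were 5 of 43 (11.6%), against 4.11% of all genes, and 3 without MHC-II-negative macrophages replicate 1. Ctsh and Arsb were positive, and Ctsz, Naglu and Mcoln1 negative. The intervals of 22 of the 43 lay within 2-fold either way, against 82.7% of all genes, and those of the other members reached beyond it. Across the 43 genes the MHC-II differences in melanophages and in macrophages, which share no array, had a Pearson r of 0.413 and a Spearman rho of 0.208, and 27 had the same sign. The cell-kind differences in MHC-II-positive and in MHC-II-negative cells, which also share no array, had an r of 0.159 and a rho of 0.0815, with 24 of the same sign. Without Ctsh the r values were 0.3505 for the MHC-II differences and 0.0518 for the cell-kind differences. Over all genes they were 0.47 and 0.28, and genes are not independent replicates.

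**Figure D4:**
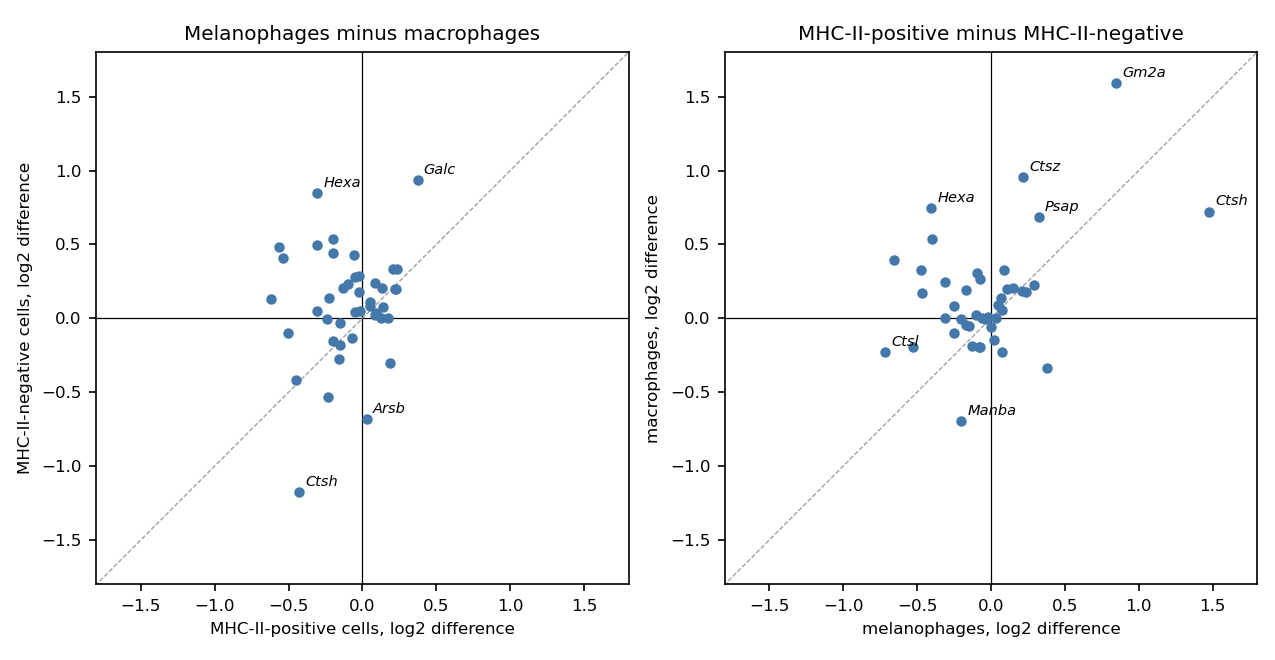
Each point is 1 of the 43 genes. The left panel sets the melanophage minus macrophage log2 difference in MHC-II-positive cells against that in MHC-II-negative cells, and the right panel sets the MHC-II-positive minus MHC-II-negative difference in melanophages against that in macrophages; the dashed line marks equal differences. Ctsh lies apart at the right of the right panel, at 1.47 and 0.72.

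The 10 genes with the 8-letter run in their promoters were also set beside the 28 with a promoter entry and without it. Their median differences were -0.0128 and 0.0726 between melanophages and macrophages, and -0.0175 and -0.0372 between MHC-II classes. An unadjusted p under 0.05 was found for 0 of the 10 and 4 of the 28 in the averaged cell-kind comparison, where 7.52% of all genes had one. In the MHC-II comparison it was found for 1 of the 10 and 7 of the 28, against 9.23% of all genes. Mcoln1, whose promoter is printed above, averaged 5.32 in MHC-II-positive and 5.97 in MHC-II-negative melanophages, and 5.88 in MHC-II-positive and 5.49 in MHC-II-negative macrophages. Its low macrophage array was again replicate 1 of the MHC-II-negative group, at 4.66.

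Among lysosomal genes outside the 43, a few passed the test. Of 24 measured further genes listed as hydrolases, which include the reductase gene Ifi30, 3 rose in MHC-II-positive over MHC-II-negative cells and none fell. Here 0.762% of all genes were called. In melanophages over macrophages 1 rose and none fell, where 0.12% of all genes were called. The list was chosen with earlier results known. Plbd1, a phospholipase B-like protein, gave 8.41, 8.88 and 8.92 on MHC-II-positive melanophage arrays, against 3.97, 4.41 and 5.15 in MHC-II-negative melanophages. In macrophages it gave 9.57, 9.65 and 9.41 in MHC-II-positive cells, against 6.28, 5.72 and 5.68 in MHC-II-negative cells. The averaged Plbd1 difference was 3.94 ± 0.19, 15.4-fold (adjusted p = 9.39e-06), with no overlap in either cell kind, and the call held in all 24 alternatives.

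Naaa, which hydrolyses N-acylethanolamines such as palmitoylethanolamide, rose by 1.15 ± 0.14, or 2.22-fold (adjusted p = 0.00308), and passed in all 24 alternatives. It averaged 7.66 in MHC-II-positive and 6.68 in MHC-II-negative melanophages, and 8.21 in MHC-II-positive and 6.90 in MHC-II-negative macrophages. Ifi30 encodes GILT, the thiol reductase that opens disulfide bonds of antigens in endosomes. It rose by 0.56 ± 0.10, or 1.47-fold (adjusted p = 0.0286), a call lost in 8 of 24 alternatives, 7 of which leave out 1 array, with adjusted p up to 0.0826. Within macrophages Plbd1, Naaa and Ifi30 were all called, Naaa and Ifi30 with the call lost in 5 and 11 of 25 alternatives, and within melanophages only Plbd1 was, though none of the 3 had an interaction that passed. Of all genes, 0.341% were called within macrophages and 0.211% within melanophages. Plbd1, Naaa and Ifi30 moved beside the dendritic cell markers given above, whose part was not tested here either.

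**Figure D5:**
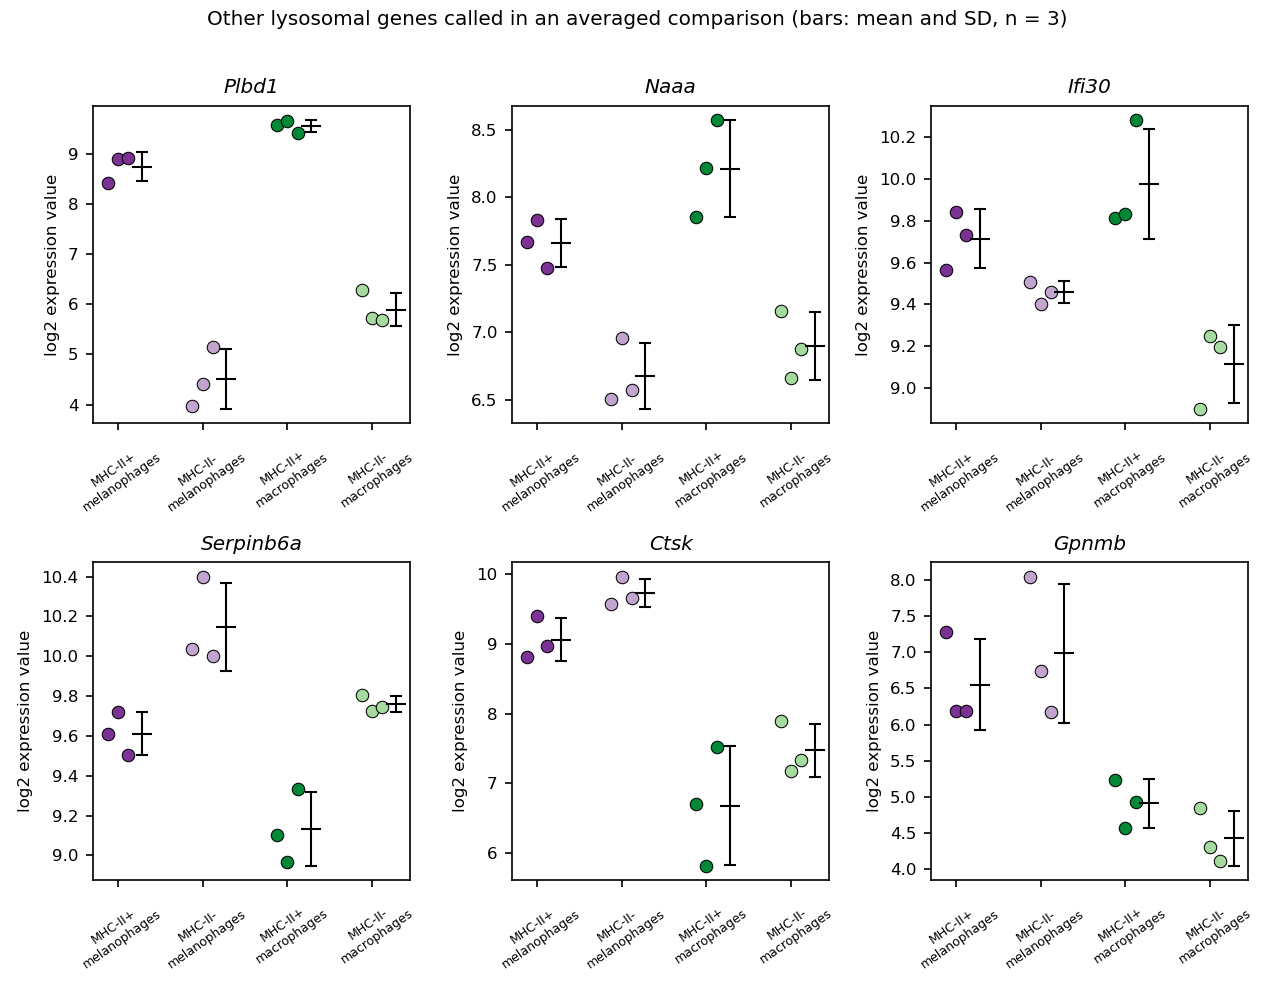
Each panel shows the log2 values of 1 gene outside the 43 in the 12 arrays, with the mean and SD of 3 arrays beside each group; the vertical axes differ and do not start at 0. Plbd1, Naaa and Ifi30 are higher in MHC-II-positive cells, Serpinb6a lower in them, and Ctsk and Gpnmb higher in melanophages.

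Ctsk, which encodes the collagen-degrading cathepsin K known from osteoclasts, was the hydrolase that rose in melanophages, by 2.32 ± 0.25 or 4.98-fold over macrophages (adjusted p = 0.0167). The Ctsk call was lost when replicate 1 of the MHC-II-negative melanophages (adjusted p = 0.0543) or replicate 2 of the MHC-II-negative macrophages (0.0681) was left out and with every probe set in the fit (0.0503), and held in the other 21 alternatives. Of 25 measured further membrane proteins, Gpnmb, a melanosomal and lysosomal glycoprotein, rose in melanophages by 2.11 ± 0.32 or 4.31-fold (adjusted p = 0.0439) and none fell. Here 0.12% of all genes were called. The Gpnmb call was lost in 13 of 24 alternatives, with adjusted p up to 0.136. These were 11 of the 12 that leave out 1 array, every probe set in the fit, and median centring, and the difference lay between 1.84 and 2.31 throughout. Between MHC-II classes limma called none of the 25, and 2 had an unadjusted p under 0.05, against 0.762% and 9.23% of all genes. There Slc29a3, a lysosomal nucleoside transporter, had the smallest adjusted p (0.76 ± 0.19, adjusted p = 0.152).

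Of 8 measured cathepsin and serine protease inhibitors, 1 fell with MHC-II and none rose, where 0.762% of all genes were called. This was Serpinb6a, an intracellular serpin that blocks serine proteases. It gave 9.61, 9.72 and 9.503 on MHC-II-positive melanophage arrays, against 10.04, 10.40 and 10.001 in MHC-II-negative melanophages. In MHC-II-positive macrophages it gave 9.10, 8.97 and 9.33, against 9.81, 9.73 and 9.75 in MHC-II-negative macrophages. Neither pair overlapped, and the difference was -0.58 ± 0.09 (adjusted p = 0.0121), called in all 24 alternatives. Between melanophages and macrophages it differed by 0.43 ± 0.09 (adjusted p = 0.14).

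Of 14 measured genes for delivering enzymes to lysosomes limma called none in either averaged comparison, where 0.12% and 0.762% of all genes were called. An unadjusted p under 0.05 was found for 2 between cell kinds and 1 between MHC-II classes, against 7.52% and 9.23% of all genes. The smallest adjusted p belonged to Sumf1, the enzyme that activates sulfatases (0.28 ± 0.11 in melanophages over macrophages, adjusted p = 0.588), and to Vps26a, a subunit of the retromer coat (0.32 ± 0.11 in MHC-II-positive over MHC-II-negative cells, adjusted p = 0.378). Of 11 regulators of lysosomal genes, which include Tfeb, Tfe3 and Mitf, limma called none either. Again 2 and 1 had an unadjusted p under 0.05, beside the same shares of all genes. Rragd, a Rag GTPase of the nutrient-sensing pathway, had the smallest adjusted p in both, with differences of 0.30 ± 0.06 (adjusted p = 0.172) and -0.18 ± 0.06 (adjusted p = 0.391), at levels near the array medians.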

How the data were processed

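The authors deposited log2 expression values, and per the submitters' processing notes they used RMA and the R package oligo. The sources used here do not give versions or settings. Per the labels' protocols, 3 to 20 ng of total RNA was amplified (NuGEN Ovation Pico WTA) and labelled with biotin. Genes came from probe sets with 1 symbol (21789 of 35556), matched through Entrez identifiers to the RefSeq table of GRCm38.p6. The number of arrays limits the precision.

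All 12 arrays entered 1 fit with a mean per group in limma 3.58.1 under R 4.3.3 (lmFit and eBayes, 8 residual and 2.445 prior degrees of freedom), with no filter. All tests were two-sided. Called means that the p-value of limma, adjusted by Benjamini-Hochberg across the 19938 genes of a comparison, was under 0.05. Errors of differences are standard errors.

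The members and the companion and marker lists were chosen with earlier results of these data known. Values in every array are given for called members and for the 4 highest and 4 lowest differences of each averaged comparison. Of each companion list, called genes and otherwise the one with the smallest adjusted p are named. Other members appear by group means, intervals and counts; single values of Hexa, Ctsd and Mcoln1 arrays were singled out after being seen. The fitting was tested on simulated data. Alternatives changed the probe set rule, filter, normalization, variance model, block and arrays.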

Additional observations from a re-analysis of the deposited data

How the results depend on the processing

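In all, 25 alternatives were run, 12 of which leave out 1 array, and 12 of 17 named differences kept their sign and their side of the threshold in every one that applied. The count of called genes between melanophages and macrophages, 0 in the report, was 1 with an intensity trend (Cd68) and 1 without both far macrophage arrays (Idua). Averaged over cell kind, the MHC-II count of 1 became 2 with cyclic loess (Ctsh and Ctsz). Within melanophages it became 0 with only the groups compared in the fit (Ctsh adjusted p = 0.175) and 0 with a block on runs of title codes (adjusted p = 0.0542). Within macrophages it became 1, for Ctsz, with genes of a mean above 4, with quantile normalization again and with cyclic loess. Without both far macrophage arrays the median difference was -0.0109 between melanophages and macrophages in MHC-II-negative cells and -0.0789 between MHC-II classes in macrophages. The cause of these shifts was not tested. Some of the alternatives also hold fewer genes or arrays. The Hexa difference reversed to -0.0792 with array weights and to -0.2491 without both far macrophage arrays. With 1 array left out it ranged from -0.1341, without MHC-II-negative macrophages replicate 1, to 0.5255.

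Leaving out 1 array at a time, the MHC-II count within melanophages ranged from 0 to 1. The median difference between melanophages and macrophages ranged from -0.0636 to 0.0862 averaged over MHC-II class and from -0.0109 to 0.2708 in MHC-II-negative cells, the upper bound without MHC-II-negative macrophages replicate 3. Between MHC-II classes it ranged from -0.0920 to 0.0772 averaged over cell kind and from -0.0423 to 0.1763 in macrophages. The interaction median ranged from -0.2807 to -0.0572, the lower bound without MHC-II-negative melanophages replicate 2.

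The labels give no replicate numbers. The title codes fall into 3 runs with 1 sample of each group, whose meaning is not given, and the block above was on these runs. Deviations of samples in a run correlated with a median of -0.026, against 0.063 for samples of different runs, so the runs were not taken as pairs. The 3 arrays a group limit the precision to the printed intervals.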
